A study of Mus musculus with 3 samples.

Results

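Strict dermal papilla cells were selected in the dorsal skin of newborn (P0) male C57BL/6 mice as cells with a transcript of at least 3 of *Sox18*, *Bmp3*, *Prdm1*, *Rspo3*, *Corin* and *Bmp7* and none of *Cdh5*, *Pecam1*, *Ptprc* or *Trp63*, genes of endothelial cells, leukocytes and keratinocytes. Of 5065 P0 cells, 157 met this rule (3.10%, exact binomial interval 2.64 to 3.62%), out of 16235 cells in the series. They were set against 2258 reference dermal cells of the same library, which had a transcript of at least 2 of *Wif1*, *Itih5*, *Pth1r*, *Twist2* and *Egfl6*, none of the same 4 lineage genes and at most 1 of the 6 genes. Skin of E13.5, E16.5 and P0 males of the same strain, with no altered gene and no treatment, was pooled by stage (from at least 3 animals by 1 passage of the methods and at least 6 by another) and sequenced as 1 droplet library of single cells per stage, in which the 3' ends of transcripts are read. The methods describe trypsin digestion of the embryonic skin and collagenase IV digestion of the P0 skin, so stage, library and enzyme cannot be told apart. With 1 library per stage no test was run: every difference has no replicate check, and all intervals are 95% intervals that cover counting error only.

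The dermal papilla is a cluster of mesenchymal cells at the base of the hair follicle. It forms from the dermal condensate, sits within the growing epithelial bulb, and sends signals to the matrix keratinocytes and melanocytes around it, while the follicle epithelium sends Sonic hedgehog, Wnt and other signals back. Papilla cells divide little and keep follicle-inducing ability, and the papillae of different hair types are known to differ in *Sox2*.

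Transcripts were counted by unique molecular identifiers (UMIs). The 157 cells held 1200965 UMIs, with a lowest, median and highest cell at 3583, 6295 and 27982, against a median of 6034 in reference cells and 6797 over the P0 library. Of the 157 cells, 36 had 3 of the 6 genes, 30 had 4, 62 had 5 and 29 had all 6, so cells with 5 or 6 were the majority. The commonest combination was all but *Corin* (44 cells), followed by all 6 genes (29 cells) and by *Sox18*, *Bmp3*, *Rspo3* and *Bmp7* (14 cells). Just outside the threshold lay 151 cells with 2 of the 6 genes. Among 207 cells with at least 3 genes, the lineage genes removed 50, of which 34 had *Trp63*, 18 *Pecam1*, 10 *Cdh5* and 1 *Ptprc*. Of the 157 cells, 142 also had a UMI of at least 2 of the 5 reference genes, and 2 had none at all, so most met that part of the reference rule too.

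**Figure D1:**
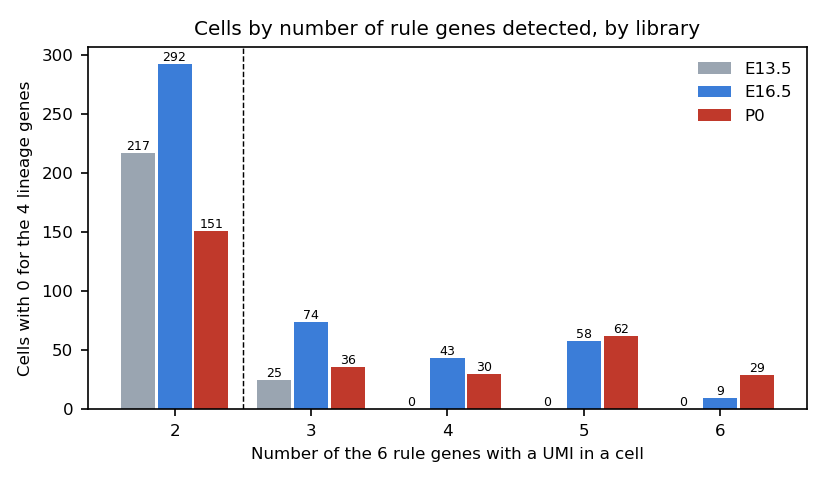
Number of cells with no UMI of the 4 lineage genes (vertical axis) by how many of the 6 genes had a UMI (horizontal axis), in each library, with the threshold as a dashed line. At P0 the counts drop from 151 cells with 2 genes to 36 and 30 with 3 and 4 and come up again to 62 with 5, whereas at E13.5 no cell had more than 3.

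Each of the 6 genes was also read in cells that it had not helped to choose, which had at least 3 of the other 5. *Bmp7*, a Bmp ligand, was then detected in 119 of 132 cells (90.2%), *Rspo3*, a secreted Wnt amplifier, in 116 of 135 (85.9%) and the transcription factor *Sox18* in 111 of 132 (84.1%). *Bmp3*, an atypical Bmp family member, was detected in 115 of 142 (81.0%) and *Prdm1*, a transcriptional repressor, in 94 of 140 (67.1%). *Corin*, a membrane-bound serine protease, was detected in 49 of 153 (32.0%, interval 24.7 to 40.0%), the lowest share of the 6. The other 5 genes were thus found in most cells chosen without them, and *Corin* in a minority.

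The label was set beside 25 dermal papilla markers that the rule did not use. Differences are given as log2 of the ratio of summed UMIs per 1000000 UMIs of the group (CPM) after adding 10 to each, and a gene is called higher or lower from a difference of 1 (2-fold) in either direction with at least 50 UMIs over both groups. Of 24 markers with enough UMIs, 19 were higher and 0 lower, with a median difference of 2.14 against 0.14 over all 10612 genes. Over all genes 492 were higher (4.64%) and 251 lower (2.37%). The members were chosen by UMIs of the 6 genes in these same cells, and the marker list with earlier results of these data known. These counts therefore describe the members and are no evidence apart from the rule. The 5 markers within 2-fold were *Crabp1*, *Tbx18*, *Foxd1*, *Itga9* and *Ncam1*. *Alpl*, the alkaline phosphatase by which papillae are stained, was at 120 CPM in 55 of 157 cells (35.0%) and at 1.20 CPM in 17 reference cells, a difference of 3.54 (2.89 to 4.28). *Vcan*, the proteoglycan versican, was at 217 against 88.0 CPM and was found in 52 cells (33.1%).

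Shares of cells with a UMI depend on depth, so they were also counted after every cell had been thinned to 3500 UMIs. Free RNA was gauged in 28 P0 leukocytes, which were taken to lack most of these genes and had a median of 8408 UMIs. *Inhba*, *Edn3*, *Gdf10*, *Tfap2c*, *Wnt5a*, *Dll1*, *Notum*, *Lef1*, *Alpl* and *Sox2* had a UMI in 0 of 28 leukocytes, which allows a share of cells with a UMI of up to 10.7%, taken here and below as 3 counts of the total. *Bmp4* had one in 2 of 28, *Bmp7* in 4 of 28, *Cd24a* in 8 of 28 and *Plac8*, which blood cells are known to express, in 7 of 28. Whether the *Cd24a* and *Plac8* UMIs were free RNA or the leukocytes' own was not tested.

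Barcodes were shared between libraries 44 times (E13.5 and E16.5), 41 times (E13.5 and P0) and 32 times (E16.5 and P0), and 3 of the 157 cells carried a shared one. Scrublet called 2 of the 157 cells and 21 reference cells doublets. Of 11 keratinocyte genes, 6 were at least 2-fold higher in the 157 cells, but the median cell held 0.0570% of its UMIs in this list against 0.0561% in reference cells. Cells above 1% numbered 6 of 157 (3.82%) and 19 of 2258 (0.842%), the summed level was 2706 against 1118 CPM, and 80.5% of the *Krt10* UMIs lay in 1 cell. Without the cells above 1% the median difference of the list was -0.17. Of 5 erythroid genes, 4 were higher (5960 against 1140 CPM for the list), with 93.1% of the *Hbb-bs* UMIs in 1 cell at 40.8% haemoglobin, and the median difference of the list was 2.26, or -0.02 without the cells over 5% haemoglobin. Of 8 endothelial genes, *Cldn5*, *Kdr* and *Flt1* were higher, by 1.83, 1.62 and 1.97 on the log2 scale, with their UMIs spread over 28, 27 and 36 cells, while *Emcn* and *Tek* were at 0. Of the pericyte, immune, Schwann and melanocyte genes with enough UMIs, 0 of 7, 0 of 7, 0 of 5 and 0 of 5 were higher and 1, 1, 1 and 3 lower. The defining genes *Cd52*, *Lyz2* and *Cdh19* were found in 0 of 157 cells, which allows a share of cells with a UMI of up to 1.91%. In reference cells *Cd52* and *Cdh19* were in 22 and 16 of 2258 (0.974% and 0.709%), below that limit, so these zeros do not set the groups apart. Of 5 hair epithelium genes 1 was higher, *Msx2*, which is also a Bmp response gene (85.8 against 39.1 CPM for the list), and of 2 muscle genes 1, *Acta1*, by 1.47 with 75.7% of its UMIs in 1 cell. The part of keratinocyte and red cell RNA in other differences was not tested, apart from recomputing them without those cells.

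**Figure D2:**
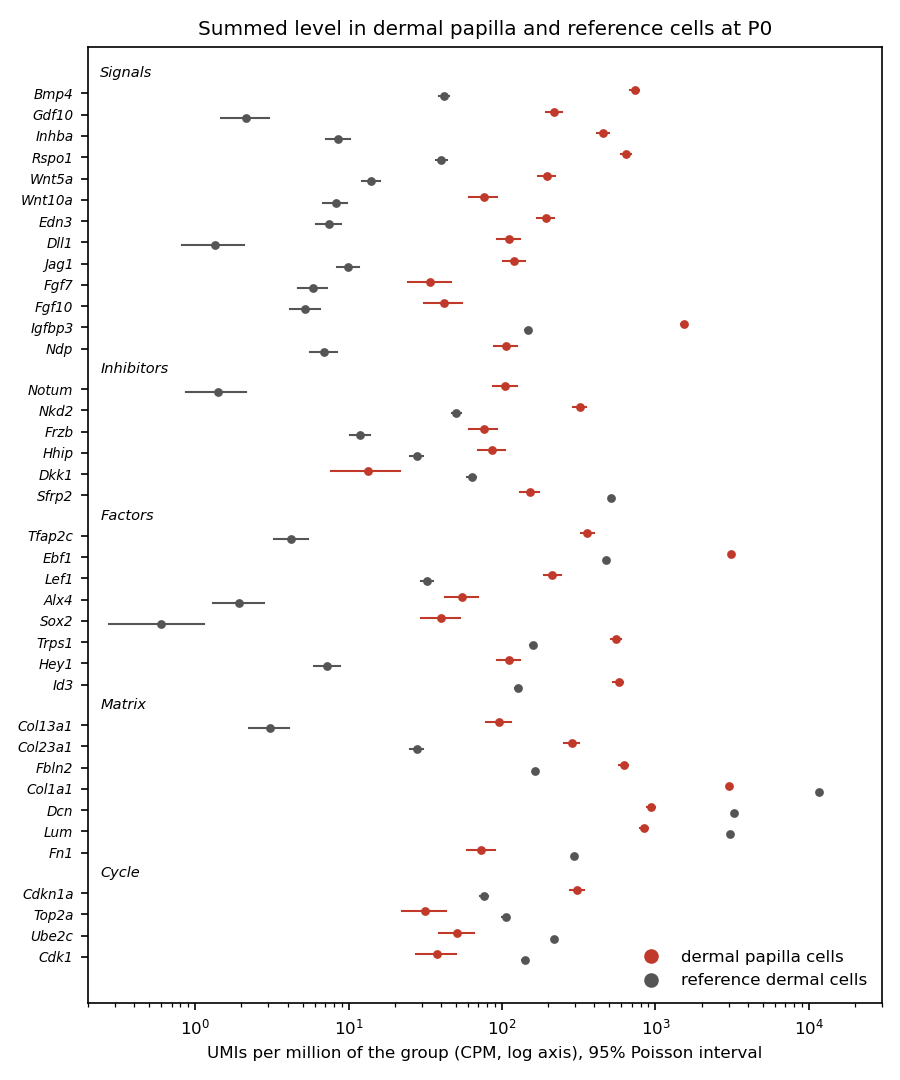
Summed UMIs as CPM (horizontal log axis) for a selection of the named genes in the 157 dermal papilla cells (red) and the 2258 reference cells (grey), with 95% Poisson intervals as bars. Most of the signals and transcription factors shown lie to the right in dermal papilla cells, as *Inhba* at 455 against 8.56 CPM. *Col1a1*, *Dcn*, *Lum* and the cycle genes *Top2a*, *Ube2c* and *Cdk1* lie to the left. Over the whole lists, 13 of 29 transcription factors and 8 of 23 Bmp, 11 of 34 Wnt and 7 of 14 Notch pathway genes were called higher. Over all 10612 genes with enough UMIs 4.64% were called higher and 2.37% lower.

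Of the secreted signals, those of the Bmp and activin families come first. *Bmp4* (chromosome 14, 46383520 to 46390669 of GRCm38) encodes a Bmp ligand. A dermal papilla cell held 0 to 45 UMIs of it with a median of 4, against 0 to 12 with a median of 0 in reference cells, and the groups overlapped. Its level was 733 against 42.0 CPM, a difference of 3.84 (3.69 to 3.98), and it was found in 84.1% of cells, or 76.4% after thinning, against 10.7% of thinned reference cells. *Inhba* (chromosome 13, 16011851 to 16031621), the beta A subunit of activin, was at 0 to 18 UMIs per cell with a median of 2, in 122 of 157 cells and in 83 of 2258 reference cells. Its level was 455 against 8.56 CPM, a 53.1-fold ratio (43.7 to 64.9) and a difference of 4.65. *Gdf10* (chromosome 14, 33923587 to 33937983), a Bmp3-related ligand, was at 0 to 21 UMIs per cell and was found in 72 cells (45.9%, 33.8% after thinning). Its level was 218 against 2.14 CPM, a difference of 4.23 (3.73 to 4.79). *Inhba* was thus detected in most of the cells and *Gdf10* in a minority.

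Among 23 Bmp pathway genes with enough UMIs, 8 were higher, with a median difference of 0.72. The higher genes took in antagonists as well as *Bmp4*: *Nog*, the Bmp-binding noggin, was at 47.5 against 16.9 CPM, *Fst*, the activin-binding follistatin, at 199 against 81.9 CPM and *Bambi*, a decoy receptor, at 39.1 against 7.49 CPM. Of the response genes, *Id1* was higher by 1.87, *Id3* by 2.09, *Msx1* by 1.36 and *Msx2* by 1.92, whereas *Id2* differed by 0.08 (-0.09 to 0.25). The receptors *Bmpr1a* and *Bmpr2* and the transducers *Smad1* and *Smad5* were within 2-fold, with differences of 0.39, 0.80, -0.12 and 0.28. *Id3* UMIs were found in 87 cells, and the 5 cells with most of them held 34.2%.

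In the Wnt pathway 11 of 34 genes were higher and 2 lower, with a median of 0.44. *Rspo1* (chromosome 4, 124986430 to 125009099), like *Rspo3* an amplifier of Wnt signals, was at 0 to 44 UMIs per cell with a median of 3 and was found in 111 of 157 cells. Its level was 642 against 40.1 CPM, a difference of 3.70 (3.55 to 3.86), and its receptor *Lgr4* was at 60.0 against 18.6 CPM. Of the ligands, *Wnt5a* was at 196 against 14.1 CPM in 66.9% of cells (54.1% thinned) and *Wnt10a* at 75.8 against 8.23 CPM in 31.9%, whereas *Wnt4*, *Wnt6* and *Wnt11* differed by 0.38, 0.43 and 0.29. The transducers *Lef1* (2.39) and *Tcf7* (1.30) were higher, and *Axin2*, a general response gene, differed by 0.61 (0.26 to 0.96). Receptors differed among themselves, with *Fzd10* higher by 2.14 and *Fzd1* at -0.58.

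Secreted Wnt inhibitors went in both directions. *Notum* (chromosome 11, 120653788 to 120661175), an enzyme that inactivates Wnt ligands, was at 105 against 1.41 CPM, in 64 of 157 cells and in 20 of 2258. *Frzb*, a Wnt-binding protein, was higher by 1.97 and *Nkd2*, an inhibitor inside the cell, by 2.45. *Dkk1* and *Sfrp2*, which block Wnt receptors or bind Wnts, were lower: *Dkk1* was at 13.3 against 63.3 CPM and *Sfrp2* at 152 against 510 CPM. *Dkk2* differed by 0.47 and *Dkk3* by -0.54.

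Of 11 hedgehog pathway genes with enough UMIs 7 were within 2-fold, with a median of 0.55. The ligand *Shh* had 0 UMIs in the 157 cells, which allows a share of cells with a UMI of up to 1.91%. Reference cells had 41, but over 14950357 UMIs in total against 1200965 in the 157 cells. *Shh* thus had too few UMIs for a call, and its zero does not set the groups apart. The receptor and target *Ptch1* was at 303 against 76.3 CPM, with 73.9% of cells positive (57.3% thinned), and *Hhip*, a hedgehog-binding inhibitor, was higher by 1.35. *Gli1* differed by 0.88 (0.62 to 1.14), and the co-receptor *Gas1* was lower, at 237 against 771 CPM. Of 17 Fgf pathway genes 5 were higher and 0 lower. The ligands *Fgf7* and *Fgf10* were at 34.1 and 41.6 CPM, with differences of 1.48 and 1.76, and were found in 32 and 38 cells. The receptor *Fgfr1* was at 874 against 237 CPM in 95.5% of cells, and *Fgf2* and the feedback inhibitor *Spred1* were higher by 1.20 and 1.55.

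Notch pathway genes had 7 of 14 members higher and 0 lower, with a median of 1.02. The ligand *Dll1* was at 0 to 9 UMIs per cell in 72 of 157 cells (45.9%, 29.3% thinned), at 111 against 1.34 CPM, a difference of 3.41 (2.80 to 4.12). The ligand *Jag1* was higher by 2.71, the receptor *Notch1* by 1.28 and the target genes *Hey1*, *Heyl* and *Hey2* by 2.81, 2.26 and 1.79. *Hes5*, another target, was higher by 2.83 but was found in 21 cells, and 1 of them held 32.2% of its UMIs. *Hes1* (0.09) and *Notch2* (-0.53) were within 2-fold. *Hes5* and *Dll1* thus differed in how their UMIs were spread over cells, since the highest *Dll1* cell held 6.77%.

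Among 25 growth factor and guidance genes 6 were higher and 5 lower, with a median of -0.06. *Igfbp3* and *Igfbp4*, which bind insulin-like growth factors, were at 1530 against 147 CPM and 597 against 89.4 CPM, and *Igfbp3* was in 148 of 157 cells. *Igf1* was higher by 1.23, while *Igf2* and *Igfbp2* were lower, at 13.3 against 63.2 CPM and 5.00 against 41.1 CPM. *Cxcr4*, the receptor of *Cxcl12*, was higher by 2.17 and *Cxcl12* was lower by 1.61 on the log2 scale. *Mdk*, the growth factor midkine, was at 357 against 160 CPM and its relative *Ptn*, pleiotrophin, at 40.0 against 101 CPM, a difference of -1.15 that was 0.01 with cells of at least 2 of the 6 genes. Of the signals to melanocytes, *Edn3* (endothelin 3, chromosome 2, 174760619 to 174784042) was at 0 to 14 UMIs per cell in 90 of 157 cells, at 193 against 7.43 CPM, a difference of 3.54 (3.23 to 3.87). *Kitl*, the Kit ligand, was at 8.33 against 15.8 CPM, a difference of -0.49. *Hgf* had 0 UMIs, which allows a share of cells with a UMI of up to 1.91%. Its difference with at least 4 of the 6 genes was -0.08, so this zero does not set the groups apart.

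Promoters (250 bases before to 50 after the start, RefSeq on GRCm38.p6) were found for 11 of 17 selected or leading genes. The letters CTTTGA on either strand, the core of the sequence that Lef1 and Tcf factors bind, occurred in 2 of the 11, those of *Inhba* (chr13:16011601-16011900, plus strand) and *Edn3* (chr2:174760369-174760668, plus strand). They are shown, with the match in capitals as it reads on the printed strand, because both ligands are among the leading genes.
Inhba promoter: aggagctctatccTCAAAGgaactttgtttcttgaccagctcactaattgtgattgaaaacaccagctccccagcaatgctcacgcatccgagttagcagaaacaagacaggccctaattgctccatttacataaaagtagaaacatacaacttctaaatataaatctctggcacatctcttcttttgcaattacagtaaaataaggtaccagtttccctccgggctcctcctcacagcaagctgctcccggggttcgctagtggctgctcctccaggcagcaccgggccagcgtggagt
Edn3 promoter: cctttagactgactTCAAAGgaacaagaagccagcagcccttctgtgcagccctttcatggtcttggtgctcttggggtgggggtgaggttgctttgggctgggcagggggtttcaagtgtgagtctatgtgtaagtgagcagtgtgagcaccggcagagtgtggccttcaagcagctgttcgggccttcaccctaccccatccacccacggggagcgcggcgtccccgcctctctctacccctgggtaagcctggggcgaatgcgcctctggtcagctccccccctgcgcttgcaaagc
The same letters occurred in 13.6% of 8147 promoters of genes with enough UMIs, in 16.1% of 360 promoters of higher genes and in 12.5% of 184 of lower genes. ACAAAG, a Sox factor motif, occurred in 15.7%, 18.6% and 13.04% of these sets, and GACCACCCA, a Gli motif, in 23 of the 8147. Each match is a description of letters in a window.

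Of 29 transcription factor genes on the list, 13 were higher and 0 lower, with a median of 0.89. *Ebf1* (chromosome 11, 44617317 to 45008091), an early B-cell factor, had a UMI in 155 of 157 cells, with a median of 18 and a highest cell of 101 UMIs against a median of 2 in reference cells. Its level was 3103 against 477 CPM, a difference of 2.68 (2.62 to 2.73). The SoxC factors *Sox4* and *Sox11* were higher by 1.56 and 1.79, the aristaless-type homeobox gene *Alx4* by 2.44, *Trps1* by 1.74, *Foxp1* by 1.5, *Runx2* and *Runx3* by 1.49 and 1.82 and *Prrx1* and *Prrx2* by 1.15 and 1.47. *Tbx15*, *Tbx18*, *Twist1* and *Meis2* were within 2-fold (0.08, 0.11, 0.44 and 0.38). Outside the list, *Tfap2c* (chromosome 2, 172549593 to 172558622), an AP-2 factor, was among the 15 highest differences, at 361 against 4.21 CPM, or 4.70 (4.33 to 5.10). It was found in 125 of 157 cells and in 52 of 2258 reference cells, and 62.4% of thinned cells had it against 1.11%. *Cebpa*, a factor of the adipocyte list and of other lineages, was at 366 against 72.2 CPM in 117 cells, while *Pparg* and *Adipoq* of the same list differed by -0.55 and 0.61.

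Apart from the selected genes, *Cd24a* (chromosome 10, 43578284 to 43584265), a small surface glycoprotein, had the highest difference among genes with enough UMIs and at least 20 cells. A dermal papilla cell held a median of 32 and at most 213 UMIs of it, against a median of 1 and at most 24, and 153 of 157 cells had one. Its level was 5171 against 156 CPM, a difference of 4.96 (4.89 to 5.03). *Serpine2* (chromosome 1, 79794197 to 79861180), a secreted protease inhibitor, was at 1214 against 34.8 CPM, a difference of 4.77, but had UMIs in 75 of 157 cells (47.8%), with a median of 0 and a highest cell of 150. *Lrrn1*, a leucine-rich repeat membrane protein, was at 289 against 12.7 CPM in 120 cells. *Plac8* (chromosome 5, 100553725 to 100572245), a small cysteine-rich protein, was at 281 against 7.63 CPM, and all of its 338 UMIs lay in 35 cells. *Cd24a*, *Tfap2c* and *Lrrn1* were therefore found in most of the cells, and *Serpine2* and *Plac8* in a minority with many UMIs each.

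The fibrillar matrix was lower. Of 30 fibroblast matrix genes, 21 were lower and 1 higher, with a median of -1.17. A dermal papilla cell held a median of 4 and at most 153 UMIs of *Col1a1* against a median of 58 and at most 478 in reference cells. The groups thus overlapped, with some dermal papilla cells above the reference median. The level of *Col1a1* was 3006 against 11580 CPM, a difference of -1.94 (-1.99 to -1.89). Of the 28 P0 leukocytes, 25, 25 and 28 had a UMI of *Col1a1*, *Col1a2* and *Col3a1*, at 583, 539 and 1106 CPM. The part of free RNA in the collagen UMIs of dermal papilla cells was not tested. The 3 collagen genes *Col1a1*, *Col1a2* and *Col3a1* made up 0.352% of the UMIs of the median dermal papilla cell (0.0343 to 5.74%) and 3.09% of the median reference cell. Cells with a share above 1% numbered 38 of 157 (24.2%) and 1933 of 2258 (85.6%). The proteoglycans *Dcn* and *Lum* were at 932 against 3265 CPM and 846 against 3050 CPM, *Fn1*, fibronectin, at 73.3 against 296 CPM and *Lox*, which cross-links collagen, at 49.1 against 199 CPM. The collagen VI genes *Col6a1*, *Col6a2* and *Col6a3* were within 2-fold (-0.46, -0.51 and 0.12). *Fbln2*, fibulin 2, was the exception, at 620 against 165 CPM.

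Matrix next to the cell surface showed another pattern. Of 20 basement membrane and surface genes 7 were higher and 1 lower, with a median of 0.51. The transmembrane collagens *Col13a1* and *Col23a1* were higher by 3.0 and 2.96, the syndecan *Sdc1* by 2.70, the basement membrane linker *Nid1* by 1.53 and the laminin chain *Lama2* by 1.43. The collagen IV genes *Col4a1* and *Col4a2* differed by 0.92 and 0.93, and the glypican *Gpc3* was lower, at 265 against 912 CPM. *Col13a1* was at 94.9 against 3.08 CPM in 60 of 157 cells. Among 13 adhesion and contractile genes, *Itga8*, an integrin chain, was higher by 1.68 and 11 others were within 2-fold. *Acta2*, smooth muscle actin, was at 69.9 against 186 CPM, a difference of -1.30. That difference was 0.30 with cells of at least 2 of the 6 genes and 0.06 with cells chosen anew after thinning.

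Genes lower in dermal papilla cells also took in surface and matrix genes of other fibroblasts. *Ly6a*, the surface antigen Sca-1 of some fibroblasts, was at 33.3 against 256 CPM, the lowest difference among these genes (-2.62), followed by *2810417H13Rik*, a gene of DNA replication, *C1qtnf3* and *Clec3b* at -2.30, -2.27 and -2.21. *Mup20*, a urinary protein gene in a family whose reads are hard to tell apart, had 0 UMIs against 487, which makes it at least 13.04-fold lower against a floor of 3 counts over the group. Its call was lost with cells chosen anew after thinning, with at least 3 of the 5 reference genes required and with 50 CPM added. The matrix proteoglycan *Ogn* and the angiotensin receptor *Agtr2* differed by -1.99 and -1.98.

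Mitotic genes were lower in 18 of 23 and higher in 0, with a median of -1.29. *Ube2c*, which targets cyclins for breakdown, was at 50.8 against 218 CPM, *Cdk1* at 37.5 against 141 CPM and the topoisomerase *Top2a* at 31.6 against 105 CPM. Cells with at least 10 of the 23 genes numbered 8 of 157 (5.10%, interval 2.23 to 9.79%) and 414 of 2258 (18.3%, 16.8 to 19.99%). After thinning the shares were 3.18% and 13.8%. Of 11 genes of cell cycle exit 3 were higher: the cyclin-dependent kinase inhibitor *Cdkn1a* at 310 against 76.3 CPM, the antiproliferative gene *Btg1* by 1.12 and the retinoblastoma gene *Rb1* by 1.51. *Cdkn1b* and *Cdkn1c* differed by 0.45 and 0.36. Beside this, 3 of 15 genes of the response to dissociation were higher (*Junb* 1.55, *Ier2* 1.61, *Socs3* 1.36), with *Fos* at 0.75 and *Jun* at 0.52, and their part in the differences was not tested.

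The differences were graded by the number of the 6 genes detected, which is a description since that number defined the groups. From cells with 2 genes, just outside, to cells with 3, 4, 5 and 6, *Inhba* was at 18.3, 111, 284, 598 and 711 CPM. *Cd24a* was at 317, 1161, 4472, 6424 and 7824 CPM and *Gdf10* at 1.74, 7.17, 177, 242 and 429 CPM. As ratios, both steps between 2 and 4 genes were larger than those beyond 4. *Col1a1* went the other way, at 6830, 4295, 3390, 3252 and 994 CPM, and the median share of the 3 collagen genes was 1.60, 0.737, 0.363, 0.283 and 0.277%. *Ube2c* was at 220 CPM in cells with 2 genes and between 25.7 and 64.4 CPM in the others. Cells with 3 genes had *Krt10* at 2187 CPM, against 58.7 to 83.9 CPM in cells with 4 to 6, and 3 of these 36 cells had the keratinocyte list above 1%. The medians of UMIs per cell were 6472, 6288, 5660, 6382 and 7733, so depth was highest in cells with all 6 genes.

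**Figure D3:**
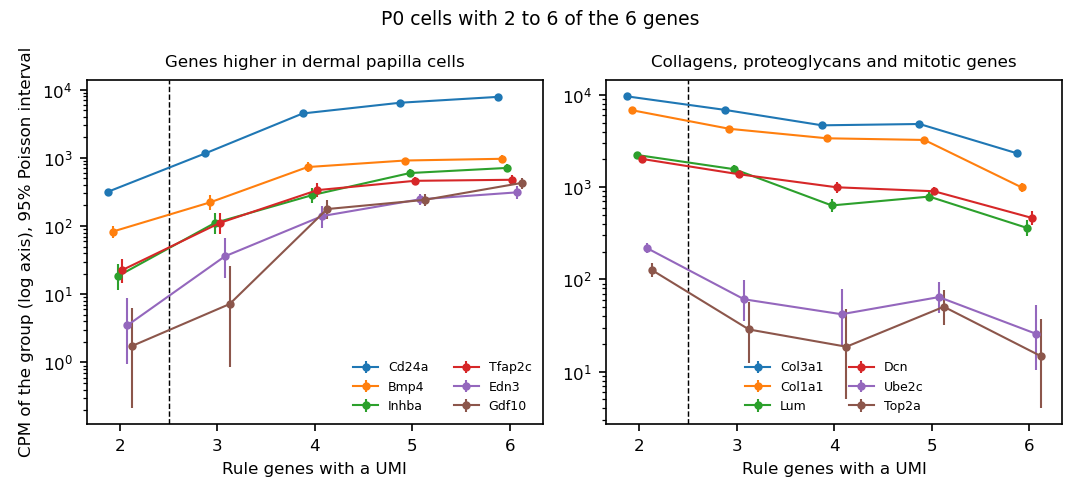
Summed CPM with 95% Poisson intervals (vertical log axes) in P0 cells by the number of the 6 genes detected (horizontal axes), for genes higher in dermal papilla cells (left) and for collagens, proteoglycans and mitotic genes (right), with the threshold dashed. *Inhba* goes from 18.3 to 711 CPM and *Col1a1* from 6830 to 994 CPM, and the cells with 3 genes lie between those with 2 and those with 4 for both.

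*Sox2* (chromosome 3, 34650405 to 34652461), a transcription factor known to mark papillae of some hair types, was not in the rule. It had 48 UMIs in 23 of 157 cells (14.6%, interval 9.52 to 21.2%), 13 of them with a single UMI and the highest with 7. After thinning 9.55% of cells had it, against 0.266% of reference cells, and it was in 8 reference cells. The 23 cells had 3, 4, 5 and 6 of the 6 genes in 7, 4, 4 and 8 cases. Their median depth was 8044 UMIs against 6176 in the other 134, so the cells with a UMI were deeper, and a cell without a UMI may still express the gene.

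Set against the other 134 cells, the 23 had 43 of 3599 genes higher (1.19%) and 138 lower (3.83%). *Serpine2* was at 4618 against 437 CPM, a difference of 3.37 (3.21 to 3.54), and was in 21 of 23 cells against 54 of 134. *Vcan* was at 735 against 99.2 CPM (2.77), *Alpl* at 305 against 77.7 CPM (1.84) and *Nog* at 161 against 21.5 CPM (2.44). The Bmp response genes *Id1*, *Id2* and *Id3* were higher by 1.43, 2.26 and 2.04, and *Bambi*, *Fst*, *Fzd10* and *Alx4* by 1.81, 1.32, 1.85 and 1.39. Each of these genes was also found in cells without *Sox2*. *Sox18* (-1.13), *Tcf7* (-1.91), *Col13a1* (-1.91), *Wnt10a* (-1.39), *Crabp1* (-1.53) and *Cpne5* (-1.37) were lower. *Tfap2c*, *Prdm1* and *Rspo3* differed by -0.05, -0.07 and -0.20, and the intervals of all 3 took in 0. The single cells rich in haemoglobin and *Krt10* were without *Sox2*, and *Krt14* was at 112 against 340 CPM.

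**Figure D4:**
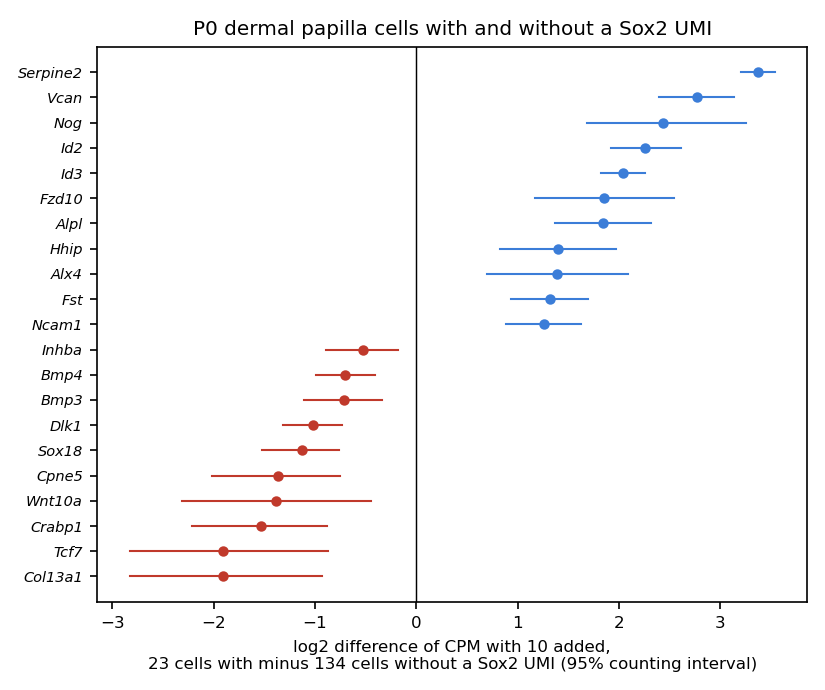
Difference of summed CPM with 10 added (log2, horizontal axis) between the 23 dermal papilla cells with and the 134 without a *Sox2* UMI, for genes picked after their values were seen, with 95% counting intervals. *Serpine2* at 3.37 and *Vcan* at 2.77 are at the top, and *Tcf7* and *Col13a1* at -1.91 are at the bottom.

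*Plac8* marked other cells. It had 0 UMIs in the 23 *Sox2* cells, against 346 CPM in the others, and was at least 25.7-fold lower there against a floor of 3 counts over the group. None of the 35 cells with *Plac8* had a *Sox2* UMI, which allows a share of cells with a UMI of up to 8.57%, and their median depth was 5662 UMIs against 6376 in the other 122. In the *Plac8* cells *Serpine2* was at 54.0 against 1505 CPM and *Vcan* at 24.9 against 266 CPM, whereas *Sox18* and *Bmp3* were higher by 1.16 and 1.01. *Inhba* and *Edn3* differed by 0.37 and 0.39 and *Col1a1* by -0.23. Both splits were made on the cells whose values they describe. *Sox18*, *Bmp3*, *Prdm1* and *Rspo3*, named in them, are genes of the rule, so their levels also depend on how the cells were chosen.

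At E16.5, the same rule found 184 of 5208 cells (3.53%), with a median of 8530 UMIs, against 2352 reference cells with a median of 10366. Cells with 5 or 6 of the genes made up 31.5% and 4.89% of them, against 39.5% and 18.5% at P0, and *Corin* was in 8.15% of cells against 33.8%. Against their own reference 333 of 11719 genes were higher (2.84%) and 127 lower (1.08%). Of the genes measured at both stages, 187 were higher at both, which is 39.8% of the 470 higher at P0 and 60.9% of the 307 higher at E16.5. Lower at both were 63, which is 25.5% of the 247 at P0 and 51.6% of the 122 at E16.5. With at least 4 of the 6 genes required at E16.5 (110 cells, a rule chosen after seeing the data), 240 were higher at both, 51.4% of 467 at P0 and 52.9% of 454 at E16.5, and 167 were lower at both, 67.6% of 247 and 37.6% of 444. Of the E16.5 lists, 17 of 24 papilla markers were higher, 7 of 30 fibroblast matrix genes were lower and 3 higher, and 7 of 23 mitotic genes were lower. Under the stricter rule 18 of 24 markers were higher, 14 of 30 matrix genes lower and 2 higher, and 20 of 23 mitotic genes lower, with 4.16% of all genes higher and 3.87% lower.

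Several genes were high at both stages. *Bmp4* differed from the reference by 3.84 at P0 and 3.75 at E16.5, *Dll1* by 3.41 and 3.53, *Ebf1* by 2.68 and 2.80 and *Edn3* by 3.54 and 2.83. Others were called at P0 alone or were further from the reference there. *Gdf10* was at 218 CPM at P0 and 10.4 CPM at E16.5 (4.23 and -0.06), *Rspo1* at 642 and 103 CPM (3.70 and 0.42) and *Serpine2* at 1214 and 281 CPM (4.77 and 1.85). *Id3* had a difference of 2.09 at P0 and 0.43 at E16.5. The reverse, a larger difference at E16.5, was seen for *Foxd1*, a forkhead factor of the condensate, at 12.5 and 146 CPM (0.66 and 2.61). It was also seen for *Sox2* at 40.0 and 190 CPM (2.24 and 3.82) and *Cdkn1a* at 310 and 591 CPM (1.89 and 3.42). *Sox2* was in 62.5% of the E16.5 cells (45.9% thinned), against 14.6% (9.55% thinned) at P0. None of these gaps between stages was tested, and stage, library and enzyme cannot be told apart.

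Opposite directions at the stages were seen for 11 genes, 4 higher at P0 and lower at E16.5, and 7 the reverse. *Ly6a*, *Mfap5*, an elastic fibre gene, and *Igfbp6* were lower at P0 (-2.62, -1.66 and -1.09, *Mfap5* at 0.07 with cells of at least 2 of the 6 genes) and higher at E16.5 (2.74, 2.86 and 2.67). Their E16.5 UMIs lay in 14, 17 and 14 of the 184 cells, and of the 330 *Mfap5* UMIs 327 were in cells with 3 of the 6 genes. With at least 4 genes required at E16.5, *Ly6a* had 2 UMIs (-0.30, interval -0.53 to 0.25), *Mfap5* 3 (-1.01, -1.31 to -0.47) and *Igfbp6* 0. Then 6 genes were in opposite directions, among them the 4 haemoglobin genes. At E13.5 only 25 of 5962 cells met the rule (0.419%), all with 3 of the 6 genes, and they were not compared.

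**Figure D5:**
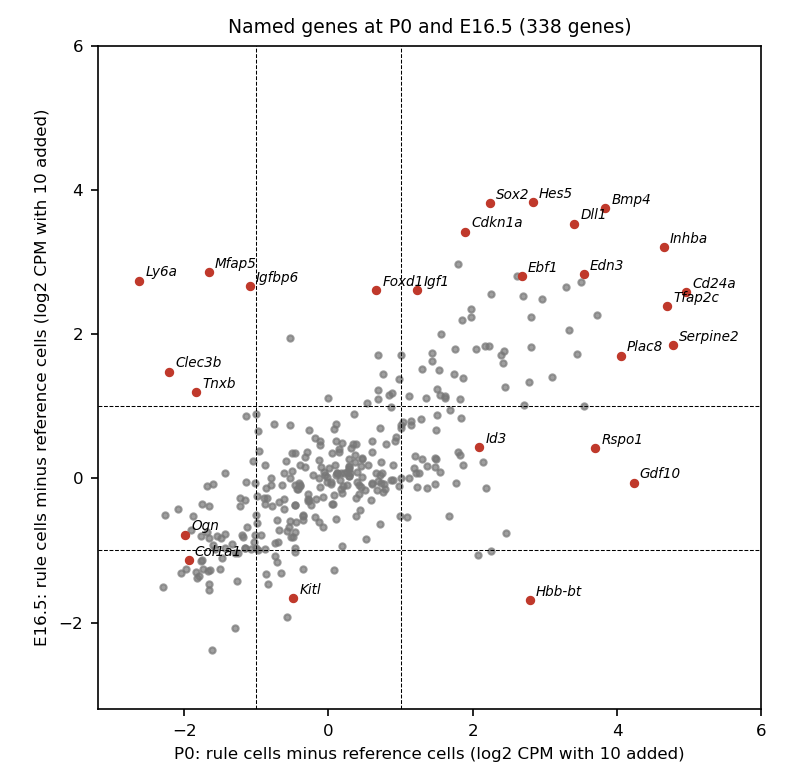
Differences from the reference at P0 (horizontal axis) and E16.5 (vertical axis), log2 of CPM with 10 added, for 338 named genes, with dashed lines at 2-fold and some genes in red with names. *Bmp4* at 3.84 and 3.75 lies high on both axes, *Gdf10* at 4.23 and -0.06 on the P0 axis alone, and *Ly6a* at -2.62 and 2.74 in the opposite corner.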

How the data were processed

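The authors counted UMIs with Cell Ranger 2.2.0 on mm10, required 1750 genes of a cell and 3 cells of a gene, scaled each cell to 10000 UMIs, added 1 and deposited the result as its natural log. All 48197283 values above 0 came back as whole UMIs within 0.001 (19165 genes, 16235 cells, 166173741 UMIs), and these whole UMIs were used in place of the log values. Cells and gene lists were chosen with earlier results of these data known. UMIs were summed over the cells of a group, scaled to CPM, and compared as log2 of the ratio with 10 added. Sums have exact Poisson intervals, ratios exact conditional binomial intervals and shares exact (Clopper-Pearson) binomial intervals at 95%, a count of 0 is limited by 3 counts of the total, and the interval of a log2 difference is that of the ratio carried to the scale with 10 added. Any gene of the lists could be named, and beyond them the 15 highest and 10 lowest differences among genes with at least 50 UMIs and 20 cells. Genes outside this rule are marked as picked after their values were seen. The code for intervals and calls was checked on group sums drawn from Poisson distributions at the reference means, with some genes changed. These sums follow the counting model of the intervals and hold no spread between cells. The check therefore says nothing about how far real cells depart from that model. Symbols were looked up in GENCODE vM21 for their positions (408 of 409 matched), and *Asip* of the pigment list is not in the table used here. Some genes of the lists are not reported here. Python 3.11.15, numpy 2.4.6, scipy 1.17.1 and pandas 2.3.3 were used, with scanpy 1.11.5 for Scrublet at an expected rate of 0.06. Alternatives changed the number of genes required, the depth, the weight of each cell, the CPM added, the minimum of UMIs, the reference, the lineage filter and the cells kept.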

Additional observations from a re-analysis of the deposited data

Results flagged for a closer look

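The difference between cells of the rule and their reference was past 2-fold in opposite directions at P0 and E16.5 in 6 genes of the lists, and this difference between stages was not tested, since each stage is 1 library. *Mfap5* was at -1.66 at P0 and 2.86 at E16.5, *Igfbp6* at -1.09 and 2.67 and the matrix gene *Tnxb* at -1.83 and 1.19 on the log2 scale. At E16.5 the UMIs of the 3 genes lay in 17, 14 and 11 of 184 cells. The haemoglobin genes *Hbb-bt*, *Hba-a1* and *Hba-a2* went the other way, at 2.79 and -1.69, 2.07 and -1.07, and 2.26 and -1.01. The sequences of *Hba-a1* and *Hba-a2* are nearly identical, so their counts are not separate. Over 92% of the UMIs of each of the 3 genes in the P0 cells came from 1 cell. With the rule applied anew to thinned cells, which left 131 cells, the P0 differences of these genes were -0.44, -1.10 and -1.48. Depth and members both changed in that setting. The E13.5 library, which no comparison used, held 25 cells of the rule among 5962.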

How the results depend on the processing

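The number of cells, 157, was 308 with at least 2 of the 6 genes and 121 with at least 4, 132 without *Sox18* or without *Bmp7* in the rule, 131 after thinning, 207 with no lineage filter and 70 with at least 2500 genes per cell. The counts of higher and lower genes, 492 and 251, were 238 and 46 with at least 2 of the 6 genes, 1158 and 733 with 1 CPM added and 162 and 67 with 50 CPM added, and 388 genes were lower after thinning. The median of the papilla markers, 2.14, was 1.57 with at least 2 of the 6 genes and 2.73 and 1.15 with 1 and 50 CPM added. That of the fibroblast matrix was -0.77 with at least 2 of the 6 genes, -0.95 with 50 CPM added and -0.90 with at least 2500 genes per cell. That of the mitotic list was -0.39, -0.72 and -2.07 in these settings and -1.71 with 1 CPM added. With at least 2 of the 6 genes *Acta2*, *Mfap5* and *Ptn* turned to 0.30, 0.07 and 0.01. With at least 4, the keratinocyte list turned to -0.14 and *Krt10* to -1.09. With thinned cells the erythroid list was at -1.0, *Acta2* at 0.06, *Krt10* at -0.90 and *Hba-a1*, *Hba-a2*, *Hbb-bs* and *Hbb-bt* at -1.10, -1.48, -1.0 and -0.44. In this setting the rule was applied anew to the thinned cells, so the members changed as well as the depth. Without the cells over 1% keratinocyte RNA that list was at -0.17 and *Krt10* at -0.19, and with all collagen-positive cells as reference the list was at -0.15. Without the cells over 5% haemoglobin, an alternative chosen after seeing the data, like the stricter rule at E16.5, the erythroid list was at -0.02, *Hba-a2* at -0.08 and *Hbb-bs* at -0.02. Fewer cells or other thresholds are part of each alternative, and other causes were not tested. Of 159 named genes, 38 lost their call with at least 2 of the 6 genes (among them *Fgf7*, *Fst*, *Hhip*, *Nog*, *Notch1*, *Cdk1*, *Top2a* and *Ube2c*), 42 with 50 CPM added, 7 with thinned cells and 0 to 6 in each other setting, and 3, 0, 6 and 0 to 2 of them turned. No paired analysis was possible because each stage has 1 library. Depth limits genes with few UMIs, such as *Sox2* with 48.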
